A study of Mus musculus with 2 samples.

Results

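Glutathione transferases, glutathione peroxidases and the core genes of antioxidant defence were described in the microarray comparison of BaF/3 (#BEB1) cells and their parental line. The genes were taken by the names printed in the scanner output, namely the alpha, mu, theta, pi, omega, kappa and zeta transferases, the microsomal transferases, the glutathione peroxidases, and Gclc, Gclm, Gss, Gsr, Nqo1, Hmox1, Txnrd1, Srxn1, Nfe2l2 and Keap1. This gave 42 genes with 57 probes at 75 spots, of 31829 gene names, 39429 probes and 43020 spots in all. RNA came from 2 cultures. BaF/3 (#BEB1) is a single clone that bound Ecrg4 strongly, grown out after repeated sorting of Ba/F3 cells that had been infected with a retroviral cDNA library from CG4 cells, a rat oligodendrocyte precursor line. Its reference is the Ba/F3 line without the library, a mouse pro-B cell line, and both lines were kept in medium with interleukin-3. Each line was read on 1 Agilent 1-colour array, both on one slide. With no replicate arrays, the differences are described and not tested.

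The deposited files assign the arrays in opposite ways. Across 39429 probes, the column for BaF/3 (#BEB1) in the authors' table of normalised values correlated at 0.999996 with the scanner output deposited for the parental cells, and at 0.982286 with that deposited for BaF/3 (#BEB1), which is a correlation across probes and not across replicates. The array listed as BaF/3 (#BEB1) in the table and as the parental cells in the scanner output is called array A here, and the other array B. Every difference is array A minus array B. By the table this is BaF/3 (#BEB1) minus the parental cells, and by the scanner output it is the parental cells minus BaF/3 (#BEB1). The gene for LOX-1, Olr1, which the study cloned from BaF/3 (#BEB1), read 12962 on array A, against 289 on array B, a scaled difference of 5.01 or 32.1-fold. It was thus higher in BaF/3 (#BEB1), the line it was cloned from, if the table's assignment is taken, and higher in the parental cells if that of the scanner output is taken. The files themselves contradict each other, so both readings are kept.

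Glutathione is the main small thiol of the cell. Transferases join it to reactive electrophiles, peroxidases spend it to reduce hydroperoxides, glutamate-cysteine ligase and glutathione synthetase make it, and glutathione reductase returns its oxidised form. Many of these genes are driven by the transcription factor NRF2, encoded by Nfe2l2, which KEAP1 holds at a low level in unstressed cells and which binds the antioxidant response element in their promoters.

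Of the 42 genes, 28 had a probe well above background on both arrays and are called measured, 1 was well above background on 1 array only, and 13 were well above background on neither array and are called not detected. Signals are background-subtracted spot intensities, and for differences each array was divided by its own 75th percentile (1506 on array A, 1080 on array B) and put on a log2 scale. Of the 28 measured genes, 0 were higher by 2-fold or more on array A, against 3.84% of all 14832 measured genes. On array B, 9 of the 28 (32.1%) were higher by 2-fold or more, against 7.31% of all measured genes. In either direction, 11.2% of all measured genes were that far apart. The median difference of the 28 was −0.61, against −0.02 over all measured genes, and 22 of the 28 differences were below 0, which is 78.6%, against 51.4% of all measured genes. When each array was instead divided by its median signal, those of the 28 past 2-fold numbered 1 on array A and 7 on array B, against 8.86% and 3.96% of all genes. With RNA of whole cultures, fewer cells of a kind and less RNA per cell cannot be told apart.

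**Figure D1:**
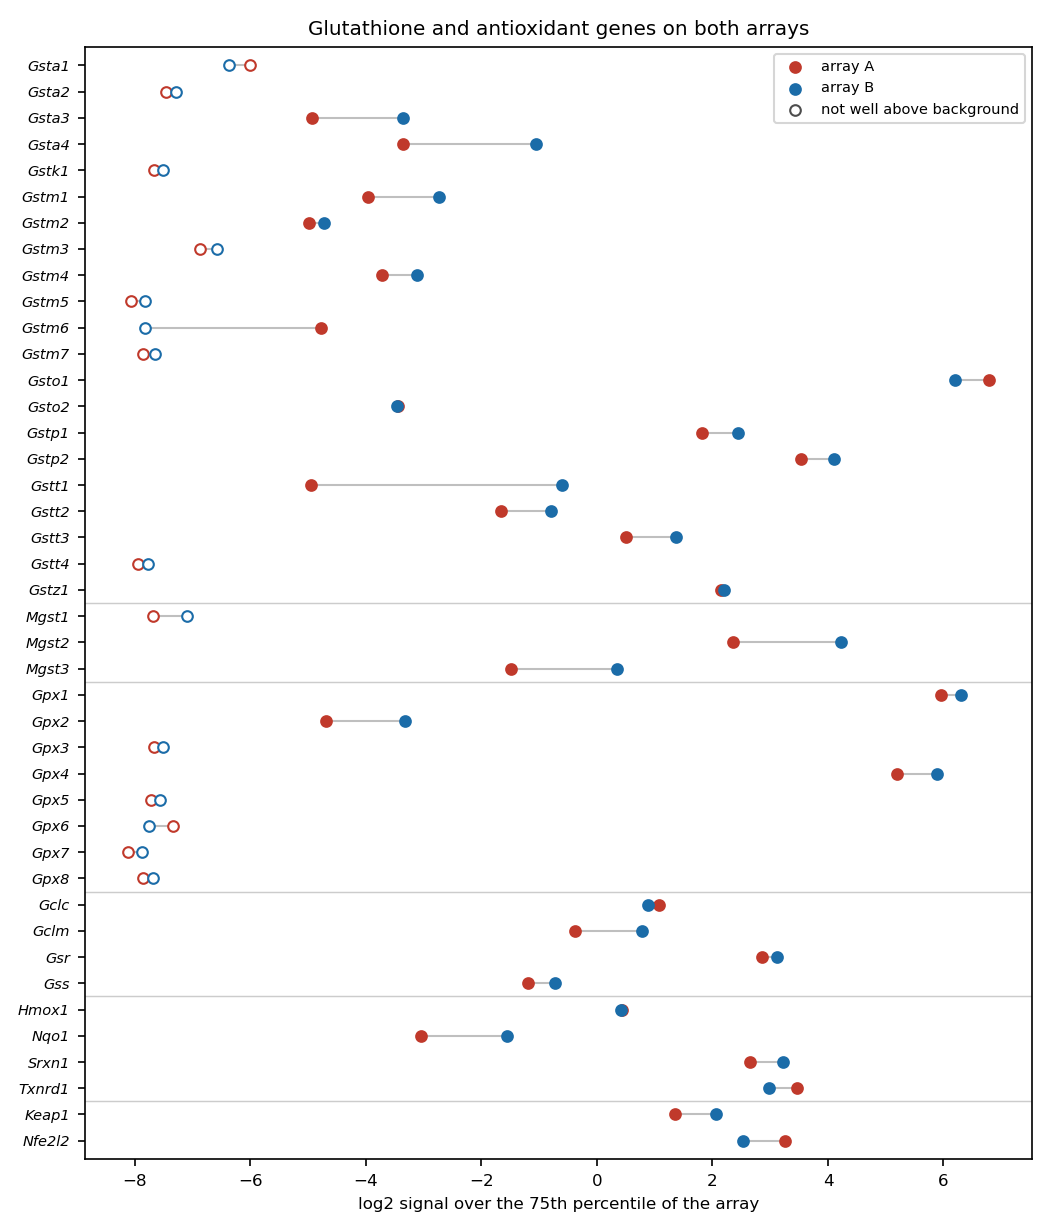
Scaled log2 signal, in units of the 75th percentile (horizontal axis), for the 42 genes, 1 row per gene in blocks by role, with array A in red and array B in blue. Open circles are signals not well above background, and Gstt1 has the widest gap among genes with both circles filled, at −4.95 on array A and −0.60 on array B; levels of different genes are not comparable, as their probes differ.

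The only error that could be measured is that between spots of 1 probe on the same array. Of the probes printed at 10 spots and well above background at each, 211 in all, the median SD of the difference was 0.05. It was 0.14 for the 29 such probes with a signal under 200 on array B, with a 95th percentile of 0.30. That group was set by array B alone, so it does not stand for genes dim on array A only, such as Gstt1 (48.6 on array A, 715 on array B). The spread between spots covers the printing and scanning of these arrays and not the differences between cultures.

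The theta-class transferases had the widest spread of any class. Gstt1 conjugates small halogenated compounds and epoxides. Its probe read 48.6 on array A and 715 on array B, which is a scaled level of −4.95 against −0.60 and a difference of −4.36, or 20.5-fold. Of the 14832 measured genes, 9 lay further towards array B, as Gstt1 ranked at 10 from that side. The probe on array A was well above background but close to the lowest such signal there, 27.6, and with normexp, a background correction with an offset that raises dim signals, the difference was −3.25. Gstt2 read 478 on array A, against 624 on array B (−0.86). Gstt3 read 2144 on array A, against 2781 on array B (−0.85). Both genes leaned the same way as Gstt1 and stayed within 2-fold. Gstt4 was not detected. The probes of the 4 theta-class genes lie close together on chromosome 10, and were set side by side because related transferases can share sequence. Each probe is 60 bases long, and the first 30 bases are shown, since the place of these probes within the exons is not known here.
Gstt1, chr10:75246560-75246619, minus strand, mm9: actataatcactactttccccttgagtctg
Gstt2, chr10:75295206-75295265, minus strand, mm9: cggaacagagatagaatggtcctggttctg
Gstt3, chr10:75236966-75237025, minus strand, mm9: gttgcttggtatgtcctgactttccaaatt
Over their full length, the longest run of bases shared by any pair of the 4 theta-class probes was 8. Probe was compared with probe and not with transcript, so binding of a probe to a related transcript was not tested. Each of the 4 theta-class genes was read by 1 probe at 1 spot.

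Alpha-class transferases were higher on array B where they were measured. Gsta4, which detoxifies aldehydes from lipid peroxidation, was printed at 10 spots. They averaged 147 ± 7.39 on array A and 519 ± 15.4 on array B (SD over 10 spots of 1 probe, not over cultures). The spots ran from 137 to 158 on array A and from 504 to 547 on array B, before scaling. The scaled difference was −2.30 ± 0.06, or 4.91-fold, with single spots between −2.40 and −2.20. The coordinates of the probe span 1173 bases for a sequence of 60, so it bridges an exon junction, and it is shown whole.
Gsta4, chr9:78046172-78047344, plus strand, mm9: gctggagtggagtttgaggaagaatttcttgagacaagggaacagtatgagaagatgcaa
Gsta3, which in mice conjugates the epoxide of aflatoxin, read 49.2 on array A and 106 on array B (−1.59). A second Gsta3 probe read 26.4 on array A, not well above background, and 59.5 on array B. Both probes of this dim gene were thus lower on array A, and its difference shrank to −1.01 with normexp. Gsta1 and Gsta2 were not detected, and their probes share a run of 16 bases.

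The mu-class genes, which form a cluster on chromosome 3, stayed within 2-fold where they were measured, apart from Gstm1. Gstm1 read 58.2 on array A, against 110 on array B, with 1 probe (−1.40). With the other it read 160 on array A, against 241 on array B (−1.07). The second of these probes is placed on chromosome 5 by the annotation in the scanner output, outside the cluster, although it carries the Gstm1 accession. Their mean was −1.24, or 2.36-fold, which was short of 2-fold after median scaling (−0.95) and with normexp (−0.92). Gstm4 had a mean difference of −0.60, from probes at −0.88 and −0.32. Gstm2 had a mean of −0.25 from probes at −0.26 and −0.24, which turned to 0.04 with median scaling and 0.02 with quantile scaling, and another Gstm2 probe was not well above background. Gstm6 was the gene well above background on 1 array only. One of its 3 probes read 55.1 on array A and 4.75 on array B, at least 1.73-fold brighter on array A when array B is put at 22.9, its lowest signal called well above background. The other Gstm6 probes were not well above background, and Gstm3, Gstm5 and Gstm7 were not detected.

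Pi-class transferases, which are the main soluble transferases of many blood cells, were within 2-fold. Gstp1 read 8118 and 3463 on array A with its 2 probes, against 7688 and 4485 on array B (−0.40 and −0.85, mean −0.63). Gstp2 read 33982 and 9031 on array A, against 37527 and 9250 on array B (−0.62 and −0.51, mean −0.57). The genes are near-identical neighbours on chromosome 19, and the annotation of the second Gstp1 probe also lists the Gstp2 transcript, so their values are not independent. The spot of that probe carried an outlier mark, and without it Gstp1 was at −0.40. The pair of probes with the longest shared run among measured genes is shown for that reason, with the shared 13 bases in capitals. The Gstp1 probe bridges an exon junction and is whole, and bases 18 to 47 of the Gstp2 probe are given.
Gstp1, chr19:4035908-4036723, minus strand, mm9: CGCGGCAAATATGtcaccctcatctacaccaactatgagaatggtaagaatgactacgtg
Gstp2, chr19:4040983-4041042, minus strand, mm9: aggaccttCGCGGCAAATATGgcaccatga
A probe that RefSeq assigns to another pi-class gene, Gstp3, is named BC021614 in the scanner output and is not among the 42 genes. It read 35.5 on array A and 18.6, not well above background, on array B.

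The omega and zeta classes did not follow the alpha and theta genes. Gsto1, which reduces dehydroascorbate and mixed disulphides, read 166294 on array A and 79866 on array B (0.58, or 1.49-fold). Gsto1 had the highest difference of any measured transferase. Gsto2 read 139 on array A, against 97.6 on array B (0.03, and −0.02 with normexp). Gstz1, an isomerase of tyrosine breakdown, read 6713 on array A, against 4981 on array B (−0.05, and 0.24 with median scaling). The kappa-class gene Gstk1 was not detected. Among the 21 cytosolic transferases, 13 were measured. Of these, 0 were past 2-fold towards array A, against 3.84% of all measured genes, and 4 (30.8%) towards array B, against 7.31%.

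Both measured microsomal transferases were more than 3-fold higher on array B. These are membrane enzymes of the leukotriene and peroxide pathways. Mgst2 read 7747 on array A and 20215 on array B (−1.86, or 3.64-fold). Mgst3 read 483 and 599 on array A with its 2 probes, against 1246 and 1526 on array B. The probes gave −1.85 and −1.83, a gap of 0.02. One bridges an exon junction and the other matches 60 unbroken bases further along the gene, and they are shown as separate readings of the same gene, the first whole and the second by its first 30 bases.
Mgst3, chr1:169305625-169307435, minus strand, mm9: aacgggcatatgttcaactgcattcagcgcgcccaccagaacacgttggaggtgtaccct
Mgst3, chr1:169303928-169303987, minus strand, mm9: tctggcctgggcctggcctggattattggg
The first 30 bases of the Mgst2 probe are given with them for comparison of the family.
Mgst2, chr3:51486449-51486508, plus strand, mm9: agattcctgaacgaatacctggactttcat
Both genes stayed past 2-fold under each of the 12 alternative settings tried, between −1.95 and −1.57 for Mgst2 and between −1.92 and −1.54 for Mgst3. Several of these settings could not move them. Neither gene is near the floor, and Mgst2 has 1 probe, so the summary over probes cannot change it. Mgst1, which is abundant in liver, was not detected with either of its probes.

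**Figure D2:**
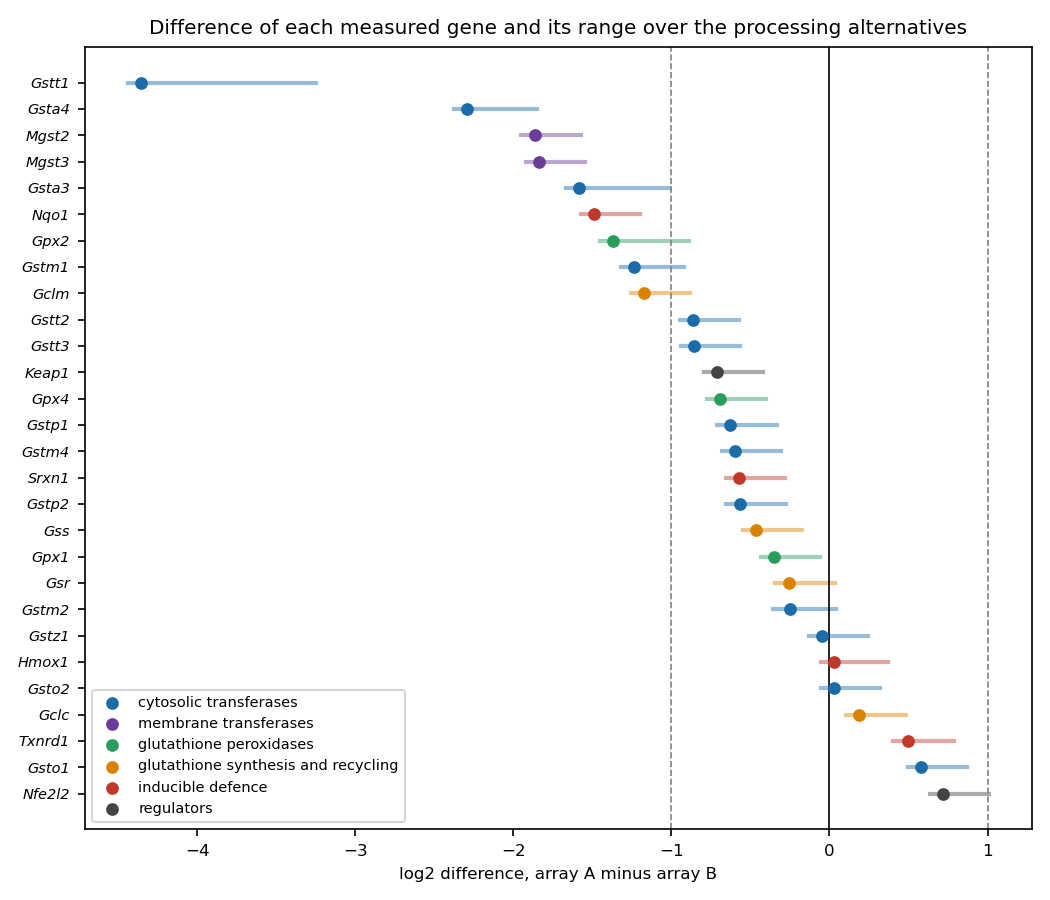
Log2 difference, array A minus array B (horizontal axis), for the 28 measured genes from lowest to highest, coloured by role. Points are the main values, bars run from the lowest to the highest of 12 processing alternatives, and dashed lines mark 2-fold; the bars of Gstm1, Gpx2 and Gclm cross the line at −1, and that of Nfe2l2 reaches 1.01.

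Of 8 glutathione peroxidases, 3 were measured. Gpx1, the soluble selenoenzyme of most tissues, read 93067 on array A and 85253 on array B (−0.35). Gpx4, which reduces phospholipid hydroperoxides and protects from ferroptosis, read 55189 on array A and 64113 on array B (−0.70, or 1.62-fold). Neither reached 2-fold. Gpx2, known from gut epithelium, was dim, with 58.1 on array A and 108 on array B (−1.37, or 2.58-fold), and it fell short of 2-fold with normexp (−0.89). Gpx3, Gpx5, Gpx6, Gpx7 and Gpx8 were not detected.

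In glutathione synthesis, the subunits of glutamate-cysteine ligase lay on opposite sides of 0. Gclc, the catalytic subunit, read 3178 on array A and 1999 on array B (0.19, or 1.14-fold). Gclm, the modifier subunit that raises its activity, read 1151 on array A and 1860 on array B (−1.17, or 2.25-fold). The Gclm value was −0.88 with median scaling, short of 2-fold, while Gclc ran from 0.11 to 0.48 over the alternatives. Gss, glutathione synthetase, read 657 on array A and 650 on array B (−0.46). Gsr, glutathione reductase, read 17432 and 6864 on array A with its 2 probes, against 14789 and 5964 on array B (−0.24 and −0.28). Its mean of −0.26 turned to 0.03 with median scaling.

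The inducible defence genes gave no common direction. Nqo1, a quinone reductase and a commonly used NRF2 target, read 182 on array A and 367 on array B (−1.49, or 2.81-fold), and stayed between −1.57 and −1.20 over the alternatives. Txnrd1, the cytosolic thioredoxin reductase, read 16644 on array A and 8472 on array B (0.50, or 1.41-fold). Srxn1, sulfiredoxin, which restores oxidised peroxiredoxins, read 9413 on array A and 10046 on array B (−0.57). Hmox1, which breaks down haem, had probes that disagreed in sign. One read 7640 on array A, against 4248 on array B (0.37). The other read 548 on array A, against 486 on array B (−0.31). Their mean of 0.03 thus describes neither probe, and with the brightest probe alone the gene was at 0.37.

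The regulators themselves stayed within 2-fold in the main setting. Nfe2l2, which encodes NRF2, read 14365 on array A and 6269 on array B (0.72, or 1.64-fold), the highest difference of the 28 genes, and it reached 1.01 with median scaling. Keap1 read 3865 on array A and 4536 on array B (−0.71, or 1.64-fold). The signs of Nfe2l2 and Keap1 were opposite under every alternative, with Nfe2l2 between 0.63 and 1.01 and Keap1 between −0.79 and −0.42. Both genes have 1 probe, so the settings for the floor and for the summary over probes could not move them. These are RNA signals, and NRF2 is controlled to a large part at the level of the protein.

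**Figure D3:**
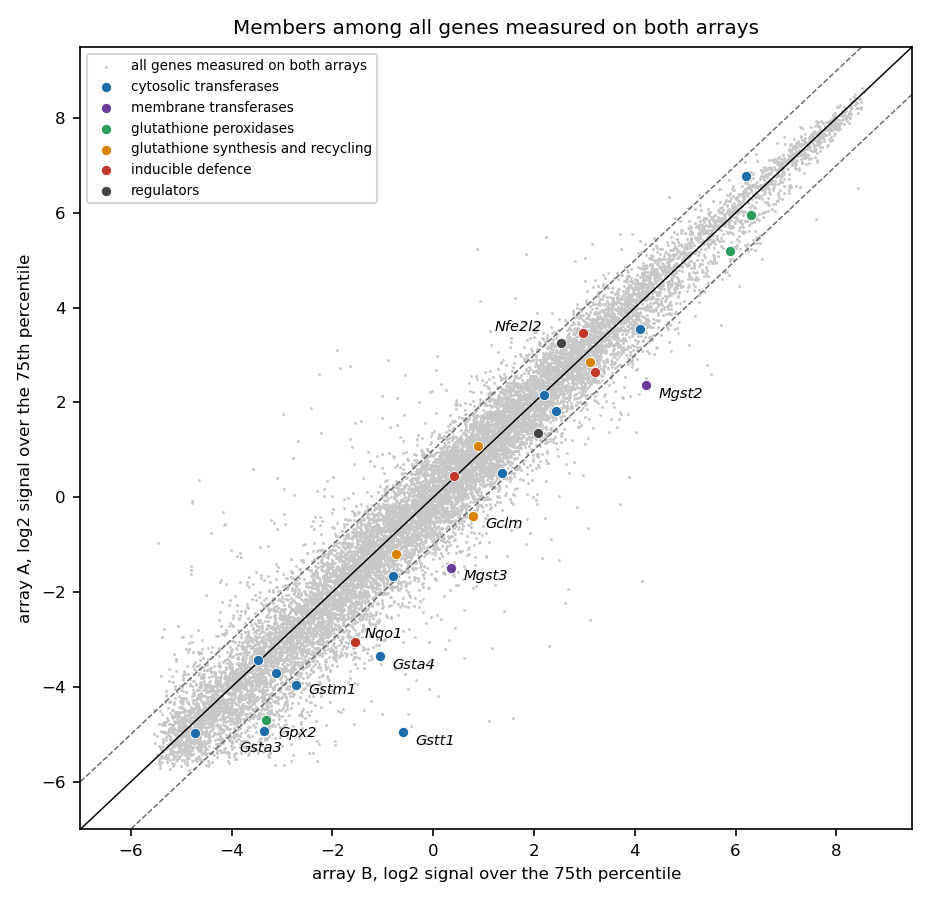
Log2 signal over the 75th percentile for each of 14832 measured genes, 1 point per gene, array A on the vertical and array B on the horizontal axis, with the 28 described genes coloured by role. The solid line marks equal values and dashed lines 2-fold; the 9 genes past 2-fold lie below the lower dashed line, Gstt1 furthest, and Nfe2l2 is also named.

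Where a gene had more than 1 measured probe, the probes could be set against each other. This held for 8 of the 28 genes, which spanned a median of 0.22 log2 units from probe to probe, against 0.27 over the 3142 such genes of the whole array. The range was 0.02 for Mgst3 and Gstm2, 0.03 for Gsr, 0.11 for Gstp2 and 0.33 for Gstm1. It was largest for Hmox1, at 0.67, followed by Gstm4 at 0.56 and Gstp1 at 0.45. For Mgst3 and Gstm1, both probes were past 2-fold on their own in the main setting, though 1 Gstm1 probe is placed on chromosome 5. The other genes past 2-fold, Gstt1, Gsta4, Gsta3, Mgst2, Gpx2, Gclm and Nqo1, rested on 1 measured probe each.

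**Figure D4:**
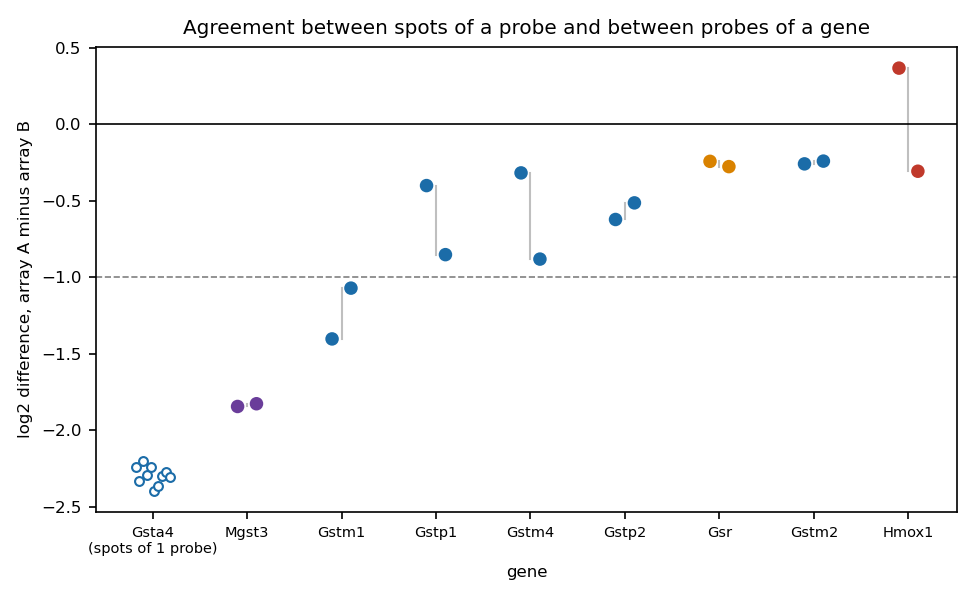
Log2 difference, array A minus array B (vertical axis), for the 10 spots of the Gsta4 probe (open circles) and for each measured probe of the 8 genes with more than 1 (filled circles, joined by a grey line), coloured by role. The dashed line marks 2-fold; the Gsta4 spots lie between −2.40 and −2.20, the Mgst3 probes at −1.85 and −1.83, and the Hmox1 probes on either side of 0.

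The promoters were searched for the core of the antioxidant response element, TGACNNNGC, on both strands. RefSeq promoters of GRCm38.p6, from 250 bases before to 50 bases after each start site, were found for 37 of the 42 genes, in 51 windows. The core was present in 8 of these windows (15.7%), against 12.4% of all 32851 promoters. The core overlapped the AP-1 motif, TGACTCA or TGAGTCA, in 0 of the 8, and in 149 of the 4071 among all promoters that held the core. With so few windows, the 0 does not set these genes apart. Among the genes past 2-fold, 8 had promoters in the table, and 2 of their 9 windows held the core, those of Gsta3 and Gclm. Measured genes within 2-fold that held it were Nfe2l2, Srxn1 and Txnrd1, and the other 3 windows belonged to Gstm5, Gstm7 and Mgst1. The windows of the 5 measured genes are shown with 10 bases on either side, written on the strand of the match, with the core in capitals.
Gsta3, chr1:21240454-21240482, plus strand, GRCm38.p6: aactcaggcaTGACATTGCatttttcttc
Gclm, chr3:122245413-122245441, minus strand, GRCm38.p6: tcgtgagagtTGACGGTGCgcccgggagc
Nfe2l2, chr2:75704885-75704913, minus strand, GRCm38.p6: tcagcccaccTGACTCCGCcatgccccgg
Txnrd1, chr10:82859104-82859132, minus strand, GRCm38.p6: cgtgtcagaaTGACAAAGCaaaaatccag
Srxn1, chr2:152105542-152105570, minus strand, GRCm38.p6: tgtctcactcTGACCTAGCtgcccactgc
The genes with the core thus lay on either side of 0, with Gsta3 at −1.59, Gclm at −1.17, Srxn1 at −0.57, Txnrd1 at 0.50 and Nfe2l2 at 0.72. A match is a description of the letters in this window only, and known elements often lie further from the start site.

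A wider list of 69 genes of glutathione, thioredoxin and NADPH metabolism and of NRF2 biology was set beside the 42. Of its 61 measured genes, 2 (3.28%) were past 2-fold towards array A, against 3.84% of all measured genes, and 4 (6.56%) towards array B, against 7.31%. These shares are near those of all genes, and the median difference was 0.03. The genes with the largest differences are given as values only. The 2 genes higher on array A were Cth, which makes cysteine from cystathionine (1.72), and Eef1e1, a factor of the tRNA synthetase complex (1.53). The 4 genes higher on array B were the mitochondrial aldehyde dehydrogenase Aldh2 (−1.39), Bach1, a repressor of antioxidant response elements (−1.17), the glutathione-cleaving Ggt1 (−1.04) and the pentose phosphate enzyme Taldo1 (−1.01). The next in size were Cul3, the ubiquitin ligase scaffold that acts with KEAP1 (0.92), Idh1 (−0.92), the NADPH source Me1 (0.91), Maff, a small partner of NRF2 (0.91), the mitochondrial reductase Txnrd2 (0.78) and the glutathione and drug exporter Abcc4 (0.74). With median scaling the counts were 7 on array A and 1, Aldh2, on array B, against 8.86% and 3.96% of all measured genes. With normexp they were 2 on array A and 2, Aldh2 and Bach1, on array B, against 2.60% and 4.77%. In the main setting, the measured peroxiredoxins, superoxide dismutases, catalase and glutaredoxins were within 2-fold.

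Markers of other blood cells also differed between the arrays. Of 8 neutrophil markers, 5 were measured, of which 4 were past 2-fold towards array B, with a summed signal of 0.729 on array A and 22.4 on array B in units of the 75th percentile, with all probes and genes of the list counted. In the same units, 6 mast cell markers summed to 0.163 on array A, against 5.97 on array B, and 6 erythroid markers to 1.04 on array A, against 4.98 on array B. All measured mast cell markers (2) and erythroid markers (3) were past 2-fold towards array B, against 7.31% of all measured genes. Each sum is weighted to its brightest genes, such as S100a9 (444 on array A, 18995 on array B) and Cpa3 (170 on array A, 5298 on array B). Of the genes detected on 1 array alone, S100a8 of neutrophils read 25.7 on array A and 3564 on array B, at least 180-fold brighter there, and Fcer1a of mast cells read 6.80 on array A and 904 on array B, at least 45.7-fold brighter there. The erythroid gene Hbb-b1 was detected on array A alone, at least 3.59-fold brighter there. Ly6g, Camp, Alas2, Ms4a2, Mcpt8 and Tpsb2 were not detected. Of 16 genes with a probe that were listed for Ba/F3 as an interleukin-3 dependent pro-B line, 6 were measured. Il3ra (0.40) and Ptprc (0.75) were higher on array A, within 2-fold. The other 4 (66.7%) were past 2-fold towards array B, namely Csf2rb (−1.86), Csf2rb2 (−1.60), Cd79b (−2.30) and Vpreb1 (−1.39). The whole list summed to 79.5 on array A, against 171 on array B. That sum is weighted to the bright Csf2rb and Csf2rb2, the latter at 33206 on array A and 72234 on array B. Pax5, Ebf1 and Rag1, which define committed B cells or their precursors, were not detected. The 7 macrophage markers summed to 1.34 on array A, against 0.903 on array B, and did not share a direction, with Adgre1 at 0.90, Csf1r at −0.46 and Lyz2 detected on array B alone (at least 1.76-fold). The 5 oligodendrocyte precursor markers summed to 0.291 on array A, against 0.340 on array B, with Cspg4 alone measured. The markers named here were chosen after their values were seen. The part of these differences in those of the transferases was not tested.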

How the data were processed

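RNA of each cell line was hybridised to 1 Agilent whole mouse genome array. The authors' scanner output gives spot intensity from Agilent Feature Extraction 9.5.1.1, deposited with background subtracted and trends across the array removed. The authors' table holds log2 values, made in GeneSpring GX by setting signals below 1.0 to 1.0 and scaling each array to its 75th percentile. Here the same steps were applied to the scanner intensity of the 43020 non-control spots. Spots of a probe were averaged, and a gene took the mean over its probes well above background on both arrays. The 49.4% of probes on array A and 49.9% on array B that were well above background, and the number of arrays, limit the precision. No spot was saturated (0 on either array). All 57 probes carried a RefSeq accession with the same symbol. Genes named with values are those well above background on at least 1 array, with the 12 largest differences of the wider list. The members and lists were chosen with earlier results of these data known. Without replicate arrays no test was made, and counts past 2-fold describe sizes only. The steps were checked on simulated arrays. Alternatives were the floor, the scaling, normexp background correction (offset 50), the filter on dim probes, outlier flags, the summary over probes, the authors' table and a 3-fold threshold. Python 3.11.15 with numpy 2.4.6, pandas 2.3.3 and matplotlib 3.10.9, and R 4.3.3 with limma 3.58.1, were used.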

Additional observations from a re-analysis of the deposited data

How the results depend on the processing

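Of the 9 members past 2-fold towards array B, 6 stayed past 2-fold under all 12 alternatives of processing, namely Gstt1, Gsta4, Gsta3, Mgst2, Mgst3 and Nqo1. Not all of these alternatives could change a value. The floor settings moved no measured gene, and the summary over probes cannot move a gene with 1 measured probe. The authors' table was made from the same arrays by the same steps. The count was 7 with median scaling, where Gclm (−0.88) and Gstm1 (−0.95) fell short, against 3.96% of all measured genes. It was 7 with normexp, where Gpx2 (−0.89) and Gstm1 (−0.92) fell short, against 4.77%. With a 3-fold threshold it was 5, for which no share of all genes is given here. On array A the count was 1 with median scaling (Nfe2l2), against 8.86% of all genes. It was also 1 when a probe needed to clear background on 1 array only (Gstm6, of 29 genes), against 6.85%. Median scaling moved the median of all genes by 0.29, and with it 69.1% of all genes past 2-fold were higher on array A, against 34.5% in the main setting. The median of the members was −0.32 with median scaling, −0.70 with the 75th percentile taken over detected probes alone, −0.67 with quantile scaling and −0.28 with no filter on dim probes, which counts all 42 genes, most of the added ones at background. Its gap to the median of all genes was −0.59 in the main setting, −0.70 with quantile scaling, −0.52 with normexp and −0.12 with no filter. Median scaling shifts every gene by the same amount and so could not change this gap. Of the 28 genes, 23 kept their sign under every alternative, and Gstm2, Gsto2, Gstz1, Gsr and Hmox1 did not. No paired analysis was possible because each cell line has 1 array. Signals near background are a limit for dim genes: with normexp the difference was −3.25 for Gstt1, −1.85 for Gsta4, −1.01 for Gsta3 and −1.26 for Nqo1, against −4.36, −2.30, −1.59 and −1.49 in the main setting.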
